A study of Homo sapiens with 12 samples.

Results

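RNA-seq of FDX2-iKO ES2 cells at 3% O2 wo Doxy was compared with that of the same line at 20% O2 + Doxy, to find which transcripts of FDX2-depleted cells lay at the reference level once oxygen was lowered and which lay off it. The members were all 58735 genes of the count table, and the comparison used 6 of the 12 libraries of the series, 3 from each of these conditions. ES2 is an established human ovarian carcinoma line. In the FDX2-iKO derivative the endogenous FDX2 gene is knocked out with Cas9 and an editing-resistant FDX2-HA is expressed from a TetON transgene as long as doxycycline (Doxy) is present, so that removal of Doxy depletes FDX2. The line was isolated as a clone, and all 12 libraries, the reference ones included, carry the knockout and the transgene. The reference cells (20% O2 + Doxy) and the FDX2-depleted cells at ambient oxygen (20% O2 wo Doxy) were cultured for 6 days at 20% O2. By the study's methods, the cells at 3% O2, with or without Doxy, spent 4 days at 20% O2 and 3 more days at 3% O2, 7 days in all. A legend to the same data gives 6 days for both oxygen levels, so whether the length of culture differed is not settled. Oxygen, FDX2, Doxy itself and possibly the length of culture differ between the cells at 3% O2 wo Doxy and the reference, and their parts in a net difference cannot be told apart. The labels number 3 libraries a condition without naming separate cultures, and the study's legends call them biological replicates. The p-values measure the spread between these libraries. In bulk RNA, a change in the share of cells that express a gene and a change in RNA per cell also cannot be told apart.

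Ferredoxin 2 (FDX2) is a mitochondrial protein that passes electrons to the machinery assembling iron-sulfur (Fe-S) clusters, the cofactors of respiratory complexes, of lipoate synthesis and of several DNA polymerases and helicases. Cells that lack such mitochondrial functions commonly raise the transcription factor ATF4, which drives genes of amino acid synthesis and transport, and cells that leave the division cycle lower the genes for DNA replication and mitosis. Low oxygen acts mainly through hypoxia-inducible factors (HIF), which are hydroxylated and degraded when oxygen is plentiful and otherwise raise genes of glycolysis, pH control and angiogenesis.

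The libraries of the reference held 28018539 to 34313637 counts and those of 3% O2 wo Doxy 24958386 to 32435660, and 16891 of the 32966 genes with a count had enough counts to be tested. FDX2 itself was not tested, with 2 to 6 counts in the reference libraries and 5 to 7 at 3% O2 wo Doxy, so the labels could not be checked on it. Of 11 epithelial and ovarian carcinoma markers, KRT19, EPCAM, CDH1 and MUC16 had at most 3 counts in any library, while 4 were tested, led by KRT7, and the summed level of the list was 1049 to 1419 CPM (the counts of a gene scaled to an equal library size) in the reference and 1085 to 1213 CPM at 3% O2 wo Doxy. All 6 mesenchymal markers were tested, and their summed level was 3692 to 4184 CPM in the reference and 3828 to 4378 CPM at 3% O2 wo Doxy. The summed levels of 5 leukocyte markers and of 4 stromal markers were below 1 CPM in both conditions, and those of 4 endothelial markers were 24.0 to 30.1 CPM in the reference and 43.1 to 54.4 CPM at 3% O2 wo Doxy, with both tested members called higher. In replicate 1 at 3% O2 wo Doxy, genes annotated as antisense took 1.197% of the counts, against 0.344% to 0.559% in the 11 other libraries, and 1078 tested genes (688 of them antisense) were more than 2-fold above both other libraries of the condition, against 5 to 101 genes in any other library. The strand setting of the counting is not given in the sources used here, so reads of a gene and of its antisense partner cannot be told apart, and the part of this excess in the results was not tested. Some libraries departed from the others of their condition along the GC content of transcripts. The correlation of a library's deviation with GC content, across 11129 genes, was 0.80 for replicate 1 of the reference, against −0.56 and −0.71 for replicates 2 and 3. It was 0.55 for replicate 2 at 3% O2 wo Doxy, against −0.24 and −0.18, and 0.65 for replicate 3 at 3% O2 + Doxy, against −0.59 and −0.57.

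Most transcripts at 3% O2 wo Doxy lay close to the reference. For 9753 genes (57.7% of those tested) the 95% interval of the log2 fold change fell wholly within 1.5-fold of the reference, which is the measure of a return used here. Words such as return, came back and stayed compare the conditions only. No library was taken when the cells were moved to 3% O2, so a course over time was not measured. At an adjusted p under 0.05, 3091 genes (18.3%) differed from the reference, 1732 of them higher (10.3%) and 1359 lower (8.05%), and 1501 of the 3091 were also inside the 1.5-fold band, that is, precisely measured small differences. The higher and the lower genes were unlike in size. Among the called genes 501 were at least 2-fold higher and 8 at least 2-fold lower. Without replicate 1 of the reference these were 498 and 22, and without replicate 1 at 3% O2 wo Doxy 442 and 11. A test against a fold of 1.5 was passed by 184 higher genes and 1 lower gene, FAM111B (1.1% of the genes tested). The higher genes had a median level of 8.98 CPM and 71.9% of them were protein-coding, and the lower genes had a median level of 53.6 CPM and 97.4% were protein-coding. For 5548 genes neither was shown, as they were not called and their interval reached beyond 1.5-fold. Of these, 2370 were protein-coding and 1265 antisense. The median log2 fold change of all tested genes was 0.05. Among protein-coding genes alone, 1245 were higher and 1324 lower, and 1083 and 980 without replicate 1 at 3% O2 wo Doxy. Among the antisense genes 153 were higher and 1 lower (121 and 3 without that library). Over all genes, 1498 were higher and 1006 lower without that library, and 1874 and 2018 without replicate 1 of the reference. The total of called genes was 1717 and 1907 without replicate 2 or 3 of the reference and 1977 without replicate 2 at 3% O2 wo Doxy. The plot of the net change of every gene shows this asymmetry.

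Set beside the other conditions, 1897 of the 3091 genes were called the same way at 20% O2 wo Doxy and not at 3% O2 + Doxy, 118 the same way at 3% O2 + Doxy alone, 143 in both, and 71 the opposite way at 20% O2 wo Doxy. In 860 genes neither of these conditions was called off the reference. All of these comparisons share the reference libraries, so the counts are a description.

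**Figure D1:**
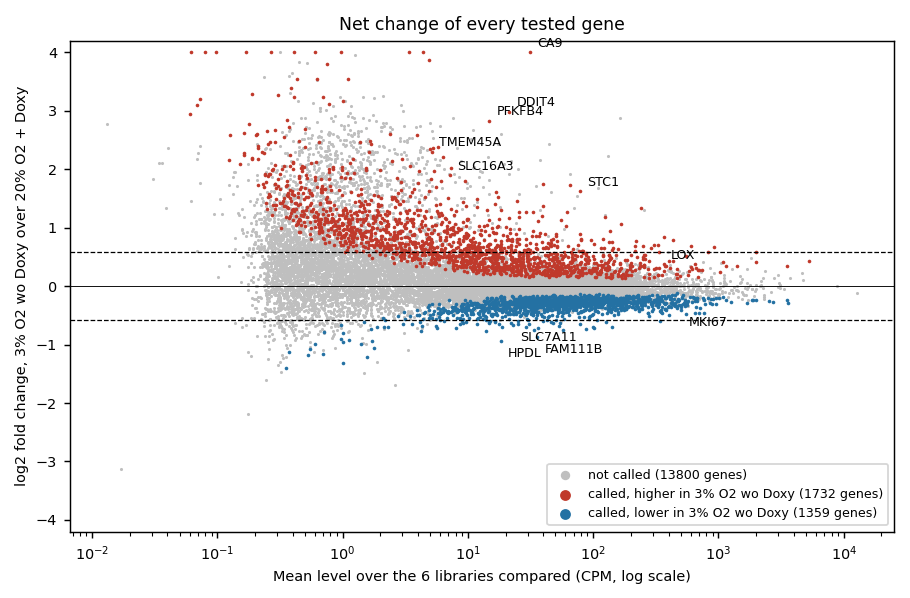
Log2 fold change of 3% O2 wo Doxy over 20% O2 + Doxy (vertical axis, values beyond 4 drawn at 4) against the mean level over the 6 libraries (horizontal axis, CPM, log scale) for 16891 genes. Dashed lines mark 1.5-fold; the 1732 higher genes reach far above the upper line while the 1359 lower genes lie mostly between the dashed lines.

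To see which genes had a distance to return from, the genes called and at least 2-fold changed at 20% O2 wo Doxy against the reference were followed. In that comparison 5961 genes (35.3%) were called. There were 777 genes that had risen at least 2-fold and 133 that had fallen. Both comparisons use the same reference libraries, so the counts that follow are a description. Of the 777, 28 lay within 1.5-fold of the reference at 3% O2 wo Doxy, 435 were still called higher, 1 was called lower, and 313 were in neither class. Their median log2 fold change was 1.43 at 20% O2 wo Doxy and 0.93 at 3% O2 wo Doxy. Of the 133, 33 lay within 1.5-fold, 16 were still called lower, 2 were called higher and 82 were in neither class, and the median log2 fold change was −1.17 at 20% O2 wo Doxy and −0.31 at 3% O2 wo Doxy. Many of the 777 were scarce transcripts, with a median of 0.597 CPM in the reference, and for 356 of them and 70 of the 133 the interval was narrow enough to fit into the band. With at least 5 CPM in either condition at 20% O2, 24 of 212 risen genes and 29 of 59 fallen genes lay within 1.5-fold, while 159 and 10 were still called in the same direction. A direct test between the FDX2-depleted conditions, which does not use the reference libraries, called 4360 genes (25.8%). The genes followed were chosen by their values at 20% O2 wo Doxy, which this test also uses. Its counts among them are therefore a description too. It called 342 of the 777 lower at 3% than at 20% O2 and 5 higher, and 87 of the 133 higher and 0 lower, by edgeR at an adjusted p under 0.05. All 28 and all 33 genes inside the band were among those called back toward the reference, a direction set in advance by how they were chosen.

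The gene lists differed widely in where they stood. The plot of the lists sets each list's members beside the medians of the other conditions. Of 24 lists, clustered histones, HIF target genes, SASP factors and glycolysis had the highest medians, and S-phase and G2/M genes the lowest. The counts of called members are to be read against 10.3% higher and 8.05% lower among all genes tested.

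**Figure D2:**
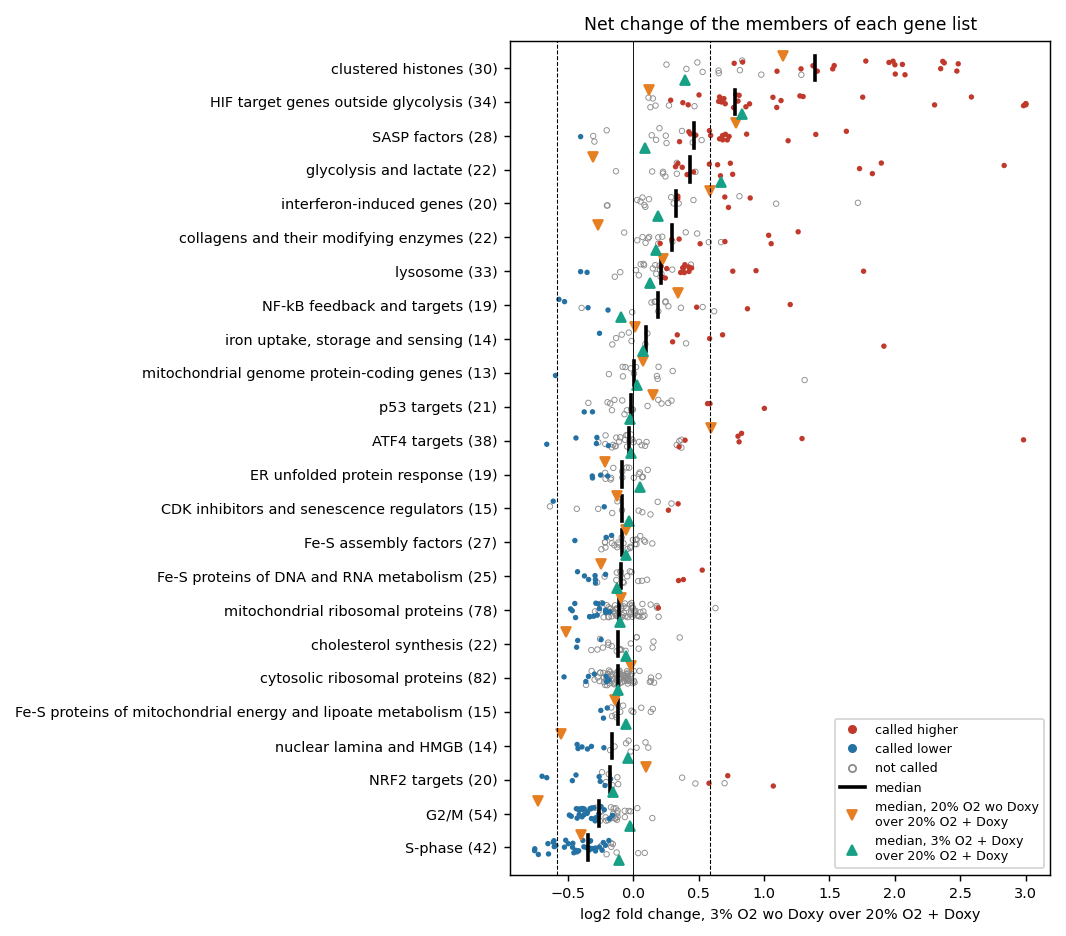
Log2 fold change of 3% O2 wo Doxy over 20% O2 + Doxy for the tested members of 24 gene lists (number in brackets; values beyond 3 drawn at 3), with filled points for called members, a black bar for the median, an orange triangle for the median at 20% O2 wo Doxy and a green triangle for the median at 3% O2 + Doxy, both over the reference; dashed lines mark 1.5-fold. For ATF4 targets the black bar lies at −0.03 and the orange triangle at 0.60, for G2/M genes they lie at −0.26 and −0.73, for HIF target genes the black bar (0.78) lies beside the green triangle (0.83), and for clustered histones it (1.39) lies beside the orange one (1.14).

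Most ATF4 targets, many of them genes of amino acid supply, were raised at 20% O2 wo Doxy and lay near the reference at 3% O2 wo Doxy. Of 38 tested, 27 were called higher and 1 lower at 20% O2 wo Doxy (median log2 fold change 0.60). At 3% O2 wo Doxy 7 were called higher and 5 lower, 26 were within 1.5-fold of the reference, and the median was −0.03, against 0.05 for all genes. CHAC1, a glutathione-degrading enzyme (ENSG00000128965, GRCh38 chromosome 15, 40952962 to 40956519), had 4.28, 3.04 and 2.47 CPM in the reference and 3.34, 2.78 and 3.03 CPM at 3% O2 wo Doxy, where it had 11.3 CPM ± 0.445 (SD, n = 3) at 20% O2 wo Doxy. The libraries of the reference and of 3% O2 wo Doxy overlapped, and the log2 fold change between them was −0.10 (95% interval −0.55 to 0.35). To show the ATF4 element that CHAC1 is known for, 30 bases of its RefSeq promoter (GRCh38.p14, chr15:40953251-40953280, plus strand) are printed 5′ to 3′ with the letters TGATGCAA, read here on the other strand, in capitals. They begin 209 bases before the RefSeq start, inside an exon of longer GENCODE transcripts of the gene.
CHAC1: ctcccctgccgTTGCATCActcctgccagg
These letters, on either strand, stood in 9.7% of the 31 promoters found for ATF4 targets and in 0.9% of 27305 promoters, from 250 bases before to 50 after the start.

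CTH, which makes cysteine from cystathionine, had 6.46, 6.81 and 7.08 CPM in the reference, 21.3 CPM ± 0.442 (SD, n = 3) at 20% O2 wo Doxy, and 6.84, 6.19 and 7.08 CPM at 3% O2 wo Doxy (log2 fold change against the reference −0.02, interval −0.20 to 0.17). The mitochondrial folate enzyme ALDH1L2 behaved alike, at 13.3, 13.3 and 15.4 CPM in the reference and 13.6, 13.2 and 14.5 CPM at 3% O2 wo Doxy, against 34.0 CPM at 20% O2 wo Doxy. AARS1, a tRNA synthetase, had a log2 fold change of 0.86 at 20% O2 wo Doxy and 0.00 at 3% O2 wo Doxy (interval −0.13 to 0.14). Fold changes between the FDX2-depleted conditions were called for CHAC1 (−1.89 on the log2 scale), CTH (−1.67), ALDH1L2 (−1.30) and AARS1 (−0.86), with adjusted p-values between 1.12e-06 and 0.000121 by edgeR. CHAC1, CTH and ALDH1L2 were named for a rise at 20% O2 wo Doxy and a return, which sets this direction. Not all of the list came back. DDIT3, a stress transcription factor, had 7.86, 8.26 and 7.76 CPM in the reference and 14.6, 14.2 and 13.6 CPM at 3% O2 wo Doxy, which is 0.83 on the log2 scale (standard error 0.060, adjusted p = 1.47e-05 by edgeR) after 2.49 at 20% O2 wo Doxy. Its exons share 39.6% of their bases with other genes. ATF4 mRNA itself was called higher in both, by 0.35 at 3% O2 wo Doxy and 0.41 at 20% O2 wo Doxy. Members that HIF also raises, such as VLDLR (0.80) and STC2 (0.81), a secreted glycoprotein, were among those off the reference. STC2 was already at 0.86 at 20% O2 wo Doxy, and at 0.66 at 3% O2 + Doxy. The part of HIF in these net differences was not tested.

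Outside this list, large rises at 20% O2 wo Doxy with a return were seen in SPX, a secreted peptide, and in PAPPA2, a protease of IGF-binding proteins. PAPPA2 had 20.9, 20.7 and 18.0 CPM in the reference and 20.6, 21.9 and 21.6 CPM at 3% O2 wo Doxy, whereas it had 72.6 CPM ± 1.04 (SD, n = 3) at 20% O2 wo Doxy. Its log2 fold change against the reference was 0.10 (interval −0.04 to 0.24), and between the FDX2-depleted conditions it was −1.77 (adjusted p = 1.05e-07 by edgeR). PAPPA2 too was named for a rise at 20% O2 wo Doxy and a return, which sets this direction. SPX had 17.9 CPM at 20% O2 wo Doxy and 4.19, 4.05 and 4.09 CPM at 3% O2 wo Doxy, inside its reference range of 3.55 to 4.71 CPM. GADD45A, a stress-induced growth arrest gene, returned less closely, from 127 CPM at 20% O2 wo Doxy to 59.9, 52.2 and 53.5 CPM. These 3 libraries all lay above the reference ones (45.5, 46.2 and 45.8 CPM), a lack of overlap that 32.4% of all tested genes had, and the difference of 0.27 was not called (adjusted p = 0.0839 by edgeR).

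The genes of mitosis, lowered at 20% O2 wo Doxy, mostly lay within 1.5-fold at 3% O2 wo Doxy, with a median below the reference. Of 54 G2/M genes, 52 were called lower at 20% O2 wo Doxy (median −0.73). At 3% O2 wo Doxy 29 were called lower and 0 higher, 49 were inside the 1.5-fold band, and the median was −0.26. Of the 10 that had fallen at least 2-fold at 20% O2, 9 were inside the band and DLGAP5 was not. MKI67, the proliferation antigen Ki-67 (ENSG00000148773, GRCh38 chromosome 10, 128096659 to 128126385), had 585, 581 and 568 CPM in the reference, 224 CPM ± 1.52 (SD, n = 3) at 20% O2 wo Doxy, and 445, 434 and 428 CPM at 3% O2 wo Doxy. All 3 libraries at 3% O2 wo Doxy lay between those of the reference and of 20% O2 wo Doxy, and the net difference of −0.41 on the log2 scale (standard error 0.067, adjusted p = 0.00207 by edgeR) was called although it lay inside the band. PLK1, a mitotic kinase, had 192, 161 and 156 CPM in the reference and 143, 143 and 126 CPM at 3% O2 wo Doxy, and its difference of −0.31 was not called (adjusted p = 0.0682 by edgeR). PLK1 was called lower with DESeq2's size factors, with its Wald test and after a correction for GC content. The same held without a filter and with at least 10 counts required in all libraries. KIF20A, a mitotic kinesin, had 106, 108 and 102 CPM in the reference and 79.4, 81.0 and 78.5 CPM at 3% O2 wo Doxy (log2 fold change −0.40, adjusted p = 0.00168 by edgeR). At 20% O2 wo Doxy it had 35.6 CPM. Outside the list, the kinase gene MAP2K6 had 4.63, 5.58 and 5.496 CPM in the reference, 1.42 CPM at 20% O2 wo Doxy and 4.63, 5.32 and 4.62 CPM at 3% O2 wo Doxy, where it overlapped the reference.

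Mitotic promoters often carry the letters TTTGAA of the cell cycle genes homology region, and they are shown for MKI67 (chr10:128126439-128126488, minus strand) and PLK1 (chr16:23678848-23678877, plus strand), from RefSeq on GRCh38.p14, with the letters in capitals.
MKI67: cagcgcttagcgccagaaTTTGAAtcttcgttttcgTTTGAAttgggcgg
PLK1: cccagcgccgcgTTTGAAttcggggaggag
The matches begin 47 and 29 bases before the RefSeq start in MKI67 and 29 bases before it in PLK1. On either strand, these letters stood in 31 of the 45 promoters found for G2/M genes (68.9%), in 1 of 33 found for S-phase genes (3.0%), and in 15.4% of all 27305 promoters. A match is a description of letters and not of binding.

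The genes of DNA replication were called lower at both oxygen levels. Of 42 S-phase genes, 36 were called lower at 20% O2 wo Doxy (median −0.40) and 34 at 3% O2 wo Doxy (median −0.34), where 27 were inside the band. Between the FDX2-depleted conditions 12 of the 42 were called higher at 3% O2 and 2 lower, against 44 and 0 of the 54 G2/M genes. MCM6, a subunit of the replicative helicase, had 123, 130 and 126 CPM in the reference and 78.5, 73.5 and 77.7 CPM at 3% O2 wo Doxy (log2 fold change −0.72, standard error 0.047, adjusted p = 7.75e-06 by edgeR), after 67.6 CPM at 20% O2 wo Doxy. UNG, which removes uracil from DNA, and WDR76 were both lower by 0.75 on the log2 scale, and PCNA, the replication clamp, by 0.60. SLBP, which binds the stem loop of histone mRNAs and was the list's most abundant member, fell by 0.35 on the log2 scale.

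**Figure D3:**
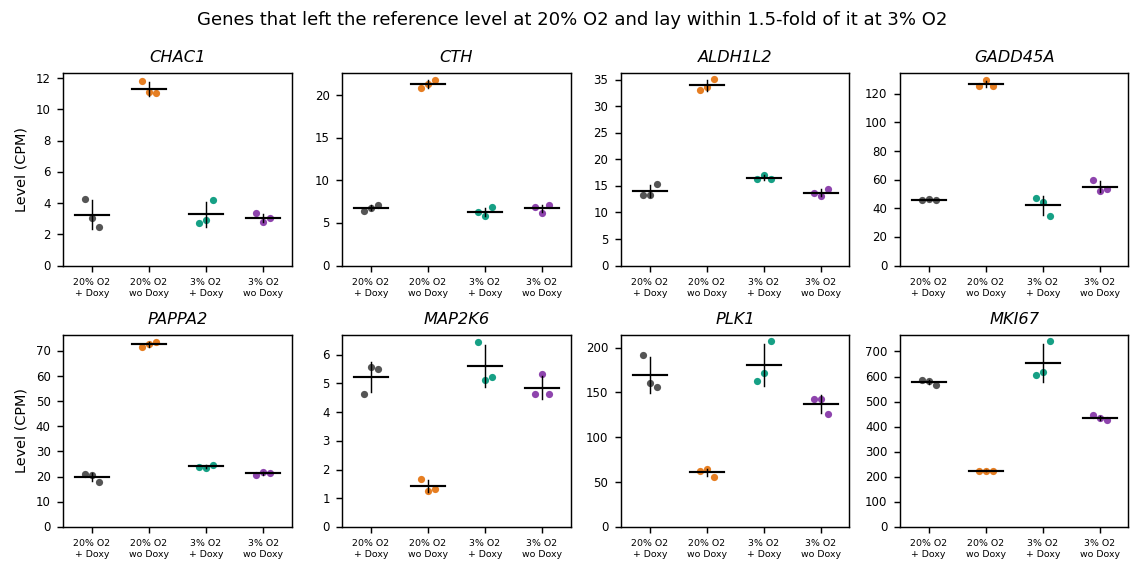
Level (CPM, axes from 0) of 8 genes in each of the 12 libraries, with the mean (bar) and SD (line) of each condition. CHAC1, CTH, ALDH1L2 and PAPPA2 sit at the reference level at 3% O2 wo Doxy and above it at 20% O2 wo Doxy. PLK1 and MKI67 at 3% O2 wo Doxy lie between the reference and 20% O2 wo Doxy. MKI67 is at 436 CPM there, against 224 CPM at 20% O2 wo Doxy and 578 CPM in the reference.

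Most of the largest net increases were also called at 3% O2 + Doxy, and of the 10 largest named ones only PLCH2 was not. Its log2 fold change there was 1.07 (adjusted p = 0.0877 by edgeR). H2BC5, H2BC15 and SULT1C2 were called there with smaller values (0.81, 0.87 and 1.04). At 20% O2 wo Doxy these 3 were at 2.48, 2.66 and 2.83. At 3% O2 + Doxy, 341 genes (2.02%) differed from the reference, and 89 of them were at least 2-fold higher. Of these 89, 86 were also called higher at 3% O2 wo Doxy and 0 lay within 1.5-fold of the reference, with median log2 fold changes of 1.54 at 3% O2 + Doxy, 1.502 at 3% O2 wo Doxy and 0.29 at 20% O2 wo Doxy. A test between the conditions at 3% O2, which called 1235 genes in all (7.31%), called 14 of the 89. Of 34 tested HIF target genes outside glycolysis, 28 were called higher and 0 lower at 3% O2 wo Doxy (82.4%), with a median of 0.78, which was 0.83 at 3% O2 + Doxy and 0.12 at 20% O2 wo Doxy. CA9, a cell surface carbonic anhydrase that exports acid equivalents (ENSG00000107159, GRCh38 chromosome 9, 35673856 to 35681159), had 3, 3 and 2 counts in the reference libraries, 46.1, 59.2 and 83.8 CPM at 3% O2 wo Doxy and 63.6 CPM ± 23.4 (SD, n = 3) at 3% O2 + Doxy. Set against the level that 3 counts per library allow in the reference, it was at least 646-fold higher than the reference. Its exons share 38.5% of their bases with other genes.

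The promoter of CA9 is known for its hypoxia response element beside the start, and 30 bases of it (RefSeq on GRCh38.p14, chr9:35673898-35673927, plus strand, an exon in some GENCODE transcripts) are printed with the core letters ACGTG, read on the other strand and beginning 18 bases before the start, in capitals.
CA9: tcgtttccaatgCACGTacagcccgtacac
ACGTG stood on either strand in 18 of the 27 promoters found for these HIF targets (66.7%), in 8 of 21 found for glycolysis genes (38.1%) and in 21.6% of all 27305 promoters. With GCGTG counted as well, the shares were 88.9%, 66.7% and 48.4%.

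DDIT4, an inhibitor of mTORC1 that both HIF and ATF4 raise, had 5.21, 5.0 and 4.17 CPM in the reference and 33.5, 36.4 and 43.6 CPM at 3% O2 wo Doxy. It was higher in each of the other conditions, at 19.3 CPM ± 0.858 at 20% O2 wo Doxy and 31.4 CPM ± 5.14 at 3% O2 + Doxy (SD, n = 3), and the net log2 fold change was 2.98 (standard error 0.14, adjusted p = 9.21e-07 by edgeR). Its exons share 41.2% of their bases with other genes. PFKFB4, which makes an activator of glycolysis, went from 3.55, 3.37 and 3.97 CPM to 21.1, 24.9 and 31.8 CPM (2.83), and the lactate exporter SLC16A3 from 3.68, 2.83 and 2.62 CPM to 9.54, 11.5 and 12.9 CPM (1.90). Neither differed detectably between the conditions at 3% O2 (log2 fold changes −0.03 and 0.10, adjusted p = 0.935 and 0.779 by edgeR). TMEM45A, a membrane protein, had a net log2 fold change of 2.30. PDK1-AS1, antisense to a pyruvate dehydrogenase kinase gene, had 10.9, 7.38 and 7.55 CPM at 3% O2 wo Doxy against 1.99 to 2.38 CPM in the reference, and its highest value was in the library rich in antisense reads. Of the 10 largest net increases, PLCH2, a phospholipase, was called higher at 3% O2 wo Doxy than at 3% O2 + Doxy (1.14, adjusted p = 0.0269 by edgeR), with 2.81, 1.92 and 1.94 CPM in the reference and 7.61, 12.8 and 10.6 CPM at 3% O2 wo Doxy. The others of these 10 so called were H2BC5, H2BC15 and SULT1C2, described below.

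Glycolysis genes were on the same side with smaller differences. Of 22, 14 were called higher at 3% O2 wo Doxy and 0 lower, 10 were within 1.5-fold, and the median was 0.44, where it was 0.67 at 3% O2 + Doxy and −0.31 at 20% O2 wo Doxy (2 higher, 10 lower). LDHA, which makes lactate from pyruvate, had 1496, 1629 and 1650 CPM in the reference, 2560, 2156 and 2434 CPM at 3% O2 wo Doxy and 3393, 3641 and 3212 CPM at 3% O2 + Doxy. Its libraries at 3% O2 wo Doxy thus lay between those of the reference and of 3% O2 + Doxy. ENO2 was among the members with a large net change (1.73), and for GAPDH, the most abundant member, the difference of 0.23 was not called (adjusted p = 0.135 by edgeR).

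Other increases were already present at 20% O2 wo Doxy. Clustered histone genes, whose mRNAs normally lack a poly(A) tail and are made in S phase, were tested for 30 of 71 members, and 20 of the 30 were called higher with 0 lower at 3% O2 wo Doxy as at 20% O2 wo Doxy. The medians were 1.39 and 1.14, and 0.40 at 3% O2 + Doxy. None of the 30 was inside the 1.5-fold band (0 within), 13 were beyond 1.5-fold, and of 17 that had risen at least 2-fold at 20% O2, 15 were still called higher. H2BC5 (ENSG00000158373, GRCh38 chromosome 6, 26158146 to 26171349) had 2.01, 1.49 and 2.06 CPM in the reference, 10.4 CPM ± 0.532 at 20% O2 wo Doxy, 3.27 CPM ± 0.209 at 3% O2 + Doxy (SD, n = 3) and 9.38, 10.6 and 9.01 CPM at 3% O2 wo Doxy, a net difference of 2.38 on the log2 scale (standard error 0.13, adjusted p = 1.53e-06 by edgeR). H2BC11 (2.35), H2BC15 (2.37) and H2BC21 (2.06) were also among the 6 genes with the largest change that stayed called. H2BC12, the most abundant, had 25.6, 20.4 and 20.1 CPM in the reference and 55.4, 62.1 and 53.7 CPM at 3% O2 wo Doxy, above its 37.1 CPM at 20% O2 wo Doxy (log2 fold change between these 0.62, adjusted p = 0.00309 by edgeR). Reads of histone genes can be shared with near-identical paralogs, and poly(A) libraries show only the polyadenylated part of these mRNAs. SULT1C2, a sulfotransferase, stayed up at a lower level, with 3.20, 2.65 and 2.79 CPM in the reference, 20.5 CPM at 20% O2 wo Doxy and 12.2, 11.5 and 11.5 CPM at 3% O2 wo Doxy (net log2 fold change 2.03).

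Factors of the senescence-associated secretory phenotype (SASP), the secreted cytokines, proteases and growth factors of arrested cells, mostly stayed above the reference. The list was known to move in these libraries and is no independent evidence of its direction. Of 28 tested members, 16 were called higher and 1 lower at 3% O2 wo Doxy (median 0.47), and 19 and 1 at 20% O2 wo Doxy (median 0.79). Of the 11 that had risen at least 2-fold at 20% O2, 8 stayed called higher outside the band and 2 were within 1.5-fold, the collagenase MMP1 and the chemokine CXCL8. Inside the band, MMP1 was still called higher (log2 fold change 0.43, adjusted p = 0.000928 by edgeR). MMP3, a matrix protease (ENSG00000149968, GRCh38 chromosome 11, 102835801 to 102843803), had 71.8, 77.7 and 76.9 CPM in the reference, 415 CPM ± 17.7 (SD, n = 3) at 20% O2 wo Doxy and 178, 169 and 168 CPM at 3% O2 wo Doxy. Its net log2 fold change was 1.18 (standard error 0.054, adjusted p = 7.15e-07 by edgeR), and at 3% O2 + Doxy it had 57.4 CPM ± 2.18 (SD, n = 3). IL1B, an inflammatory cytokine, had 13.0, 14.8 and 14.1 CPM in the reference and 21.5, 21.8 and 23.9 CPM at 3% O2 wo Doxy (0.68), after 45.8 CPM at 20% O2 wo Doxy. CXCL8, which attracts neutrophils, was on the other side, with 114, 128 and 141 CPM in the reference, 300 CPM at 20% O2 wo Doxy and 100.3, 99.2 and 112 CPM at 3% O2 wo Doxy. All 3 of the last were below the reference libraries, and the difference of −0.30 just missed the threshold (adjusted p = 0.0501 by edgeR). STC1, a secreted glycoprotein, and IGFBP4, which binds insulin-like growth factors, were also high at 3% O2 + Doxy. STC1 had 36.2, 38.0 and 39.9 CPM in the reference, 99.2 CPM at 20% O2 wo Doxy, 109 CPM at 3% O2 + Doxy and 118, 117 and 119 CPM at 3% O2 wo Doxy (1.63), and IGFBP4 had 23.4 CPM at 20% O2 wo Doxy, 41.5 CPM at 3% O2 + Doxy and a net log2 fold change of 0.87. CXCL3, another chemokine, was the member called lower (−0.40).

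Of 19 feedback genes and targets of NF-kB, a factor that drives inflammatory genes, 3 were called higher and 4 lower at 3% O2 wo Doxy, with a median of 0.19 (10 and 3 at 20% O2 wo Doxy, median 0.34). The median was 0.31 without replicate 1 at 3% O2 wo Doxy and likewise without replicate 1 of the reference. VCAM1, an adhesion molecule, had 2.72, 4.06 and 3.94 CPM in the reference and 9.06, 7.74 and 7.83 CPM at 3% O2 wo Doxy (1.2), TNFAIP3, an inhibitor of the pathway, was at 0.87, and CD83 was lower (−0.57). The 4 lower members of the list were 1 without replicate 2 of the reference or replicate 2 at 3% O2 wo Doxy and 2 without replicate 3 of the reference. Of 20 interferon-induced genes, 5 were called higher and 0 lower (median 0.33, or 0.11 when genes under 10 counts in any library were left out), IFIT3 at 0.73 and RIGI and STAT2 at 0.34. These 5 were 2 without replicate 2 or 3 of the reference or replicate 2 at 3% O2 wo Doxy, and 3 without replicate 3 at 3% O2 wo Doxy, and the call of STAT2 was among those lost in the first 3 of these. Of 33 lysosomal genes, 15 were called higher and 2 lower (median 0.22, and 0.23 at 20% O2 wo Doxy), and 9 were called higher without replicate 2 or 3 of the reference. The cathepsin CTSS had 1.73, 1.92 and 1.79 CPM in the reference, 11.8 CPM at 20% O2 wo Doxy and 6.64, 5.75 and 6.05 CPM at 3% O2 wo Doxy (1.76). CTSK, another cathepsin, was at 0.94 and the peptidase TPP1 at 0.76.

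**Figure D4:**
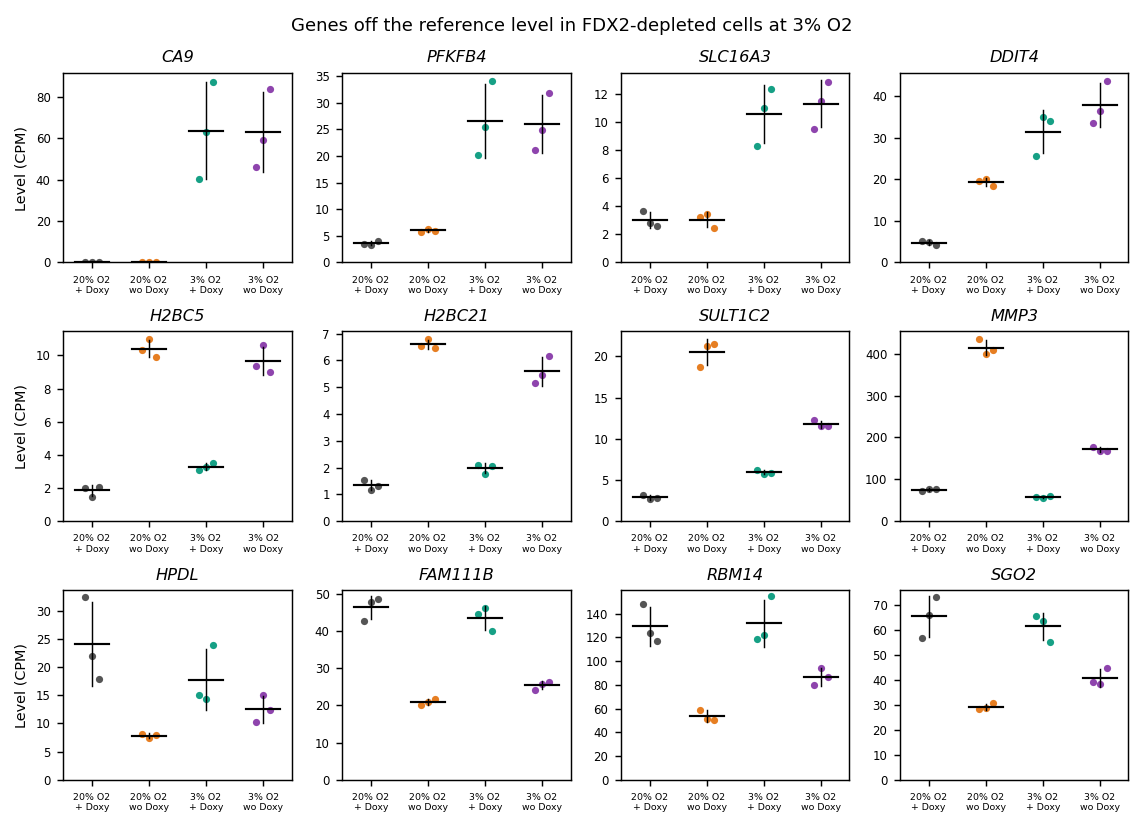
Level (CPM, axes from 0) of 12 genes in each of the 12 libraries, with the mean (bar) and SD (line) of each condition. CA9, PFKFB4 and SLC16A3 are high in both conditions at 3% O2, the histone genes H2BC5 and H2BC21, SULT1C2 and MMP3 are high in both conditions wo Doxy, DDIT4 is above the reference in all 3 other conditions, and HPDL, FAM111B, RBM14 and SGO2 at 3% O2 wo Doxy lie below all reference libraries.

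The net decreases were small. The 10 largest of the named set lay between −0.94 and −0.72 on the log2 scale, and all 10 were also called lower at 20% O2 wo Doxy. HPDL, an enzyme of coenzyme Q synthesis, was the largest (−0.94, standard error 0.24, adjusted p = 0.0210 by edgeR), and its reference libraries varied widely, with 32.4, 21.99 and 17.9 CPM, against 10.2, 15 and 12.4 CPM at 3% O2 wo Doxy. The call was lost without replicate 1 or without replicate 3 at 3% O2 wo Doxy. FAM111B, a protease-like gene expressed with the cell cycle (ENSG00000189057, GRCh38 chromosome 11, 59107185 to 59127410), was tighter, with 42.8, 47.8 and 48.6 CPM in the reference and 24.2, 25.8 and 26.4 CPM at 3% O2 wo Doxy (−0.86, standard error 0.072, adjusted p = 3.52e-05 by edgeR). At 20% O2 wo Doxy it had 20.9 CPM. GUCY1B1, a subunit of the nitric oxide receptor, was at −0.76, POP1, of RNase P and MRP, at −0.73, FAM72C, which has near-identical paralogs, at −0.72 (a call lost without replicate 2 or 3 of the reference or replicate 2 at 3% O2 wo Doxy), and AP1S3, a clathrin adaptor subunit, and HHIP, an inhibitor of hedgehog signals, at −0.72. Of the genes that had fallen at least 2-fold at 20% O2, SGO2, which protects chromosome cohesion (−0.68), the microRNA host gene MIR17HG (−0.62) and RBM14, an RNA-binding coactivator (−0.58), stayed called lower. RBM14 had 148, 123 and 117 CPM in the reference, 53.7 CPM at 20% O2 wo Doxy and 79.5, 94.4 and 86.2 CPM at 3% O2 wo Doxy. The lamina and HMGB genes mostly lay within 1.5-fold of the reference (13 of 14), with a median below it (−0.16, and −0.55 at 20% O2 wo Doxy). Of the 14, 6 were called lower than the reference and 0 higher. Between the FDX2-depleted conditions 10 were called higher at 3% O2 and 0 lower. The largest called member was TMPO (−0.43), a lamina-associated protein. LMNB1, a nuclear lamin, had 180, 172 and 180 CPM in the reference, 77.8 CPM at 20% O2 wo Doxy and 127, 144 and 135 CPM at 3% O2 wo Doxy (−0.39).

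Some genes lay on opposite sides of the reference in the FDX2-depleted cells at 20% and at 3% O2. Called lower at 3% O2 wo Doxy and higher at 20% O2 wo Doxy were 26 genes, and the reverse held for 45. SLC7A11, the cystine importer (ENSG00000151012, GRCh38 chromosome 4, 138164097 to 138242349), had 25.4, 28.3 and 30.2 CPM in the reference, 63.5 CPM ± 4.27 (SD, n = 3) at 20% O2 wo Doxy and 16.4, 17.6 and 19.1 CPM at 3% O2 wo Doxy (net log2 fold change −0.66, standard error 0.11, adjusted p = 0.00250 by edgeR). At 3% O2 + Doxy it had 20.4 CPM ± 3.08 (SD, n = 3). PSAT1, of serine synthesis, had 150, 158 and 170 CPM in the reference, 222 CPM at 20% O2 wo Doxy and 119, 112 and 123 CPM at 3% O2 wo Doxy (−0.44). The thioredoxin reductase TXNRD1 had 845, 907 and 905 CPM in the reference and 669, 621 and 636 CPM at 3% O2 wo Doxy (−0.46), near its 654 CPM at 3% O2 + Doxy, and the cholesterol exporter ABCA1 (−0.50) and the lipid transfer protein BLTP3A (−0.43) were the others named. SLC7A11, TXNRD1 and GCLM, a subunit of glutathione synthesis (−0.70), are targets of NRF2, the oxidative stress factor. Of 20 such targets 8 were called lower and 3 higher at 3% O2 wo Doxy (median −0.18), where 3 and 9 were at 20% O2 wo Doxy (median 0.10), and ABCC3, a drug exporter, was at 1.07. The 8 were 5 without replicate 2 or 3 of either condition.

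Among the 45 genes that went the other way, BNIP3, a mitophagy receptor, had 109, 105 and 110 CPM in the reference, 90.6 CPM at 20% O2 wo Doxy, 344 CPM at 3% O2 + Doxy and 210, 226 and 245 CPM at 3% O2 wo Doxy (1.07). The libraries at 3% O2 wo Doxy lay above the reference and below those at 3% O2 + Doxy (log2 fold change between these −0.60, adjusted p = 0.000685 by edgeR). The glucose transporter SLC2A1 (0.76), IGFBP3 (0.89) and the fucosyltransferase FUT11 (0.80) were likewise high at 3% O2 + Doxy. GAS6-AS1, an antisense RNA, had 11.6, 8.05 and 6.52 CPM at 3% O2 wo Doxy with the highest value in the library rich in antisense reads (1.21, and 0.95 without it).

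In 22 genes the net difference was called together with the difference of the responses to Doxy removal between the oxygen levels, whereas neither 20% O2 wo Doxy nor 3% O2 + Doxy was called off the reference. The interaction was called for 1231 genes in all (7.29%). Of the 22, 9 were higher and 13 lower. ANKRD1, a muscle-type ankyrin repeat protein and well-known target of YAP (ENSG00000148677, GRCh38 chromosome 10, 90912096 to 90921276), had 24.2, 23.2 and 24.9 CPM in the reference, 25.2 CPM ± 0.633 at 20% O2 wo Doxy, 24.4 CPM ± 0.826 at 3% O2 + Doxy (SD, n = 3) and 34.9, 34.9 and 35.9 CPM at 3% O2 wo Doxy. Its net log2 fold change was 0.55 (standard error 0.050, adjusted p = 5.89e-05 by edgeR). LOX, which crosslinks collagen, had 319, 317 and 320 CPM in the reference and 376, 437 and 431 CPM at 3% O2 wo Doxy (0.38), the carboxypeptidase CPA4 had 1753, 1729 and 1612 CPM and 2162, 2310 and 2326 CPM (0.42), and FRMD6, a regulator of the Hippo pathway, was at 0.34 and MIR4435-2HG at 0.30. On the lower side were the DNA helicase HELB (−0.41), POPDC3 (−0.36), ZNF486 (−0.31) and ZNF225 (−0.30). The net call of ZNF486 was lost without replicate 2 or 3 of the reference or any replicate at 3% O2 wo Doxy, and that of ZNF225 likewise except without replicate 2 at 3% O2 wo Doxy. Without replicate 1 at 3% O2 wo Doxy their adjusted p-values by edgeR were 0.0556 and 0.0892.

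**Figure D5:**
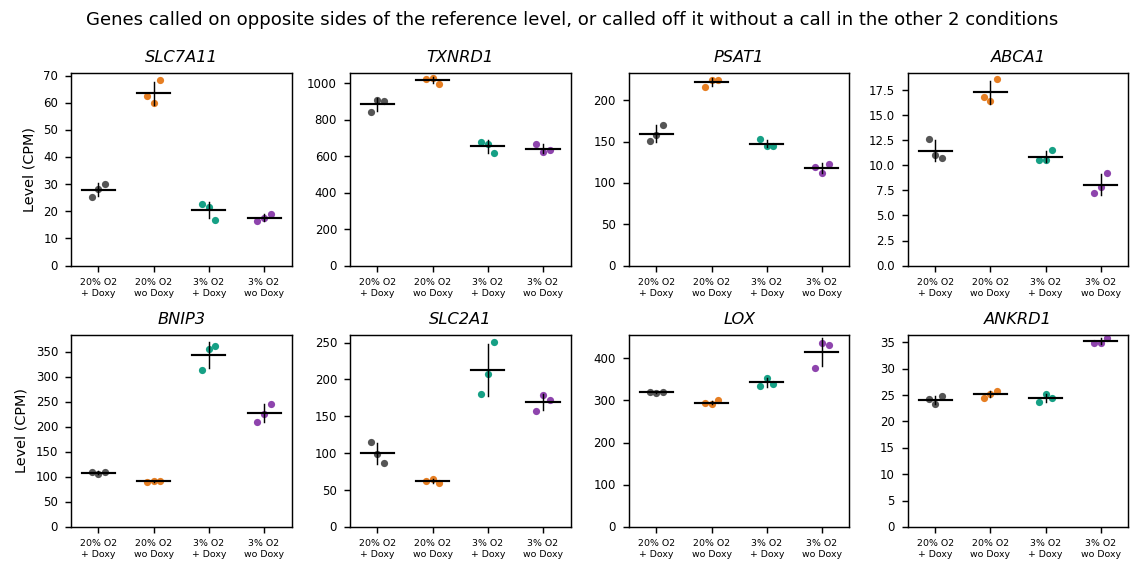
Level (CPM, axes from 0) of 8 genes in each of the 12 libraries, with the mean (bar) and SD (line) of each condition. SLC7A11, TXNRD1, PSAT1 and ABCA1 are above the reference at 20% O2 wo Doxy and below it at 3% O2 wo Doxy, BNIP3 and SLC2A1 the reverse, and LOX and ANKRD1 at 3% O2 wo Doxy exceed the libraries of every other condition.

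The collagens and the enzymes that modify them, many of them oxygen-using hydroxylases and oxidases, had 8 of 22 members called higher and 0 lower (median 0.30), against 3 higher and 6 lower at 20% O2 wo Doxy (median −0.27). LOXL3 (1.26), COL7A1 (1.05) and COL5A1 (1.04) led. COL5A1 had 130.5, 60.0 and 54.1 CPM at 3% O2 wo Doxy against 41.2, 38.2 and 39.8 CPM in the reference, and without replicate 1 at 3% O2 wo Doxy its log2 fold change was 0.52 (adjusted p = 0.00294 by edgeR). The calls of COL5A1 and COL7A1 were lost without replicate 2 or without replicate 3 of the reference, and that of COL7A1 also without replicate 2 at 3% O2 wo Doxy. Of the list, 2 members were called higher without replicate 2 or 3 of the reference, and 3 and 4 without replicate 2 or 3 at 3% O2 wo Doxy. The excess of COL5A1 in replicate 1 at 3% O2 wo Doxy was found beside the excess of antisense reads, and the part of the latter in it was not tested. COL1A1, the most abundant, was not called (0.49, adjusted p = 0.0799 by edgeR). Cholesterol synthesis genes came back, with 3 of 22 called lower and 0 higher, 19 within 1.5-fold and a median of −0.11, where 17 were lower at 20% O2 wo Doxy (median −0.51). The sterol sensor INSIG1 (−0.42) and SQLE (−0.24), an epoxidase of the pathway, were among the 3. Without replicate 2 of the reference or replicate 2 or 3 at 3% O2 wo Doxy 1 was called lower, and SQLE also lost its call without replicate 3 of the reference.

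Transcripts of the Fe-S system itself lay near the reference. Of 27 Fe-S assembly factors, 3 were called lower and 0 higher, 26 were within 1.5-fold and the median was −0.09. The chaperone HSPA9 (−0.21) and CIAPIN1 (−0.16), a factor of cytosolic cluster assembly, were among those called lower. The 3 were 6 without replicate 1 of the reference and 1 without replicate 2 of the reference or replicate 2 or 3 at 3% O2 wo Doxy, where both of these genes lost their call. All 15 Fe-S proteins of mitochondrial energy and lipoate metabolism were within 1.5-fold, with 3 called lower and 0 higher (UQCRFS1 at −0.25, CISD1 at −0.23 and SDHB at −0.20; median −0.12). The 3 were 1 without replicate 2 or 3 of the reference or replicate 1 or 2 at 3% O2 wo Doxy, with CISD1 and SDHB no longer called. The list of Fe-S proteins of DNA and RNA metabolism also holds other enzymes, such as the aldehyde oxidase AOX1 and the purine enzyme XDH. Of its 25 tested members, 23 were within 1.5-fold, 7 were lower and 3 higher (median −0.09). The share called was 40%, against 18.3% of all genes tested. DNA2, a nuclease-helicase, had the lowest value (−0.42), and AOX1 (0.53) and XDH (0.38) were among the higher members. The 7 were 3 without replicate 2 or 3 of the reference, and 4 and 2 without replicate 1 or 2 at 3% O2 wo Doxy. Of 14 iron genes, 5 were called higher and 1 lower (median 0.10), and 3 were higher without replicate 2 or 3 of either condition. The lower one lost its call when any of these 4 libraries, or replicate 1 at 3% O2 wo Doxy, was left out. TFRC, the transferrin receptor, had 432, 468 and 478 CPM in the reference, 728, 722 and 764 CPM at 3% O2 wo Doxy and 854 CPM at 3% O2 + Doxy (0.68), and FTL, a ferritin chain, had 715, 619 and 634 CPM and 861, 1062 and 1028 CPM (0.58). The 13 protein-coding genes of the mitochondrial genome had a median of 0.01, with MT-ND6 called lower (−0.60) and 0 higher (3 lower without replicate 1 at 3% O2 wo Doxy), and MT-CO1, the most abundant, at 0.01.

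In the remaining lists 8.54% to 26.7% of the members were called, against 18.3% of all genes tested. All 19 genes of the unfolded protein response of the endoplasmic reticulum were within 1.5-fold, 4 of them lower and 0 higher (median −0.08), HSPA5, the chaperone BiP, at −0.31. The 4 were 2 without replicate 2 or 3 of the reference or replicate 1 or 2 at 3% O2 wo Doxy. Of 21 p53 targets 3 were higher and 2 lower (median −0.02, and 0.06 without replicate 1 at 3% O2 wo Doxy), TP53INP1, which had risen to 18.2 CPM at 20% O2 wo Doxy, from 4.19, 5.36 and 4.996 CPM to 8.74, 9.44 and 10.9 CPM (1.00), PHLDA3 at 0.59 and DDB2 at 0.57. The call of PHLDA3 was lost without replicate 2 or 3 of the reference or replicate 2 at 3% O2 wo Doxy, and the 2 lower members were 1 when any of the 6 libraries but replicate 1 of the reference was left out. Of 15 CDK inhibitors and senescence regulators 2 were higher, CDKN2B (0.34) and E2F7 (0.27), and 2 lower, with E2F8 at −0.61 (median −0.08, and 0.04 after a correction for GC content), and CDKN2A, the most abundant, was not called (0.19, adjusted p = 0.225 by edgeR). The call of CDKN2B was lost without replicate 1 of the reference, and the 2 lower members were 1 without replicate 2 of the reference or replicate 1 or 3 at 3% O2 wo Doxy. Of 82 cytosolic ribosomal protein genes 7 were lower, 0 higher and 77 within 1.5-fold (median −0.12), and of 78 mitochondrial ones 15, 1 and 72 (median −0.11). The 7 were 16 without replicate 1 of the reference, 15 without replicate 3 at 3% O2 wo Doxy, 4 without replicate 2 of the reference, and 3 without its replicate 3 or replicate 1 or 2 at 3% O2 wo Doxy. The 15 were 8 without replicate 2 of the reference and 7 without replicate 2 at 3% O2 wo Doxy.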

How the data were processed

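Poly(A) RNA was sequenced on DNBSEQ-T7 with paired ends by the authors, who used STAR for alignment and featureCounts for counting. The values they deposited are whole-number counts of each gene in each library, neither normalized nor pooled. The build is GRCh38 per the labels, and versions, annotation and strand setting are not given in the sources used here. For 2 of the reference libraries the labels state that part of the read files was lost, and their counts were used as deposited. All 58735 gene identifiers are in GENCODE release 29, which gave positions, gene types and exon overlaps.

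In R 4.3.3, edgeR 4.0.16 kept 16891 genes (filterByExpr, minimum count 10, minimum total 15), scaled libraries by TMM and fitted a quasi-likelihood model with 4 condition means to all 12 libraries (8 residual degrees of freedom). Calls are at a Benjamini-Hochberg adjusted p under 0.05, glmTreat tested against a fold of 1.5, and a gene was within 1.5-fold where its whole 95% interval was. Values with ± are SD over 3 libraries, and replicates varied more than read sampling. Where all reference libraries had 3 counts or fewer, a fold is a bound from 3 counts. On simulated counts with 200 genes changed 2-fold (net comparison, 16692 genes), 145 were recovered with 4 false calls, and 0 changed genes fell within the band. Intervals of the simulated fold changes held the true value in 95.4% of genes. The changed genes were drawn only from those above a minimum mean count. The simulated libraries held neither the GC deviations nor the antisense excess seen here, so the rates do not cover scarce genes or such deviations. DESeq2 1.42.0 was an alternative, and the S-phase and G2/M genes are those of Seurat 5.3.0.

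Named genes were, by rule, the 10 largest net increases and decreases (called, mean of at least 5 CPM, no overlap of libraries), the 6 largest in each class of genes changed at least 2-fold at 20% O2 wo Doxy, the 5 largest in each direction of those called on the other side or in the net comparison and interaction alone, and for each list the 3 largest called members and the most abundant one. In the other classes and lists too, a mean of at least 5 CPM in either condition compared was required. Other members named were chosen after their values were seen. Some genes that the rule names are not reported here. The comparison, lists and rules were chosen with earlier results of these data known. Promoters are the first RefSeq one listed for each of 27305 symbols (GRCh38.p14). A correction for GC content and the counts by gene type were added after the data were seen.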

Additional observations from a re-analysis of the deposited data

Results flagged for a closer look

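These genes were singled out because their response to Doxy removal differed between the oxygen levels, by the interaction term in edgeR (the log2 response at 3% O2 minus that at 20% O2, adjusted over all 16891 genes). They had been selected by their values at 20% O2 wo Doxy and 3% O2 wo Doxy, which enter the same term, so the test is not independent of the choice. Among genes called on one side of the reference at 20% O2 wo Doxy and on the other at 3% O2 wo Doxy, the difference was 1.35 for GAS6-AS1 (adjusted p = 0.0163) and 0.65 for IGFBP3 (adjusted p = 0.0385). It was −1.39 for SLC7A11 (adjusted p = 0.000783), −1.01 for ABCA1 (adjusted p = 0.00248), −0.80 for PSAT1 (adjusted p = 0.000531) and −0.72 for BLTP3A (adjusted p = 0.00296). The difference was not called for BNIP3 (−0.34, adjusted p = 0.0564), TXNRD1 (−0.23, adjusted p = 0.0833), SLC2A1 (0.36, adjusted p = 0.242) and FUT11 (0.18, adjusted p = 0.413).

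Among genes called in the net comparison and in the interaction alone, it was 0.46 for ANKRD1 (adjusted p = 0.00374), 0.54 for MIR4435-2HG (adjusted p = 0.00705), 0.39 for LOX (adjusted p = 0.0158), 0.31 for CPA4 (adjusted p = 0.0292) and 0.25 for FRMD6 (adjusted p = 0.0380). It was −0.49 for HELB (adjusted p = 0.0399), −0.48 for ZNF486 (adjusted p = 0.0412) and for ZNF225 (adjusted p = 0.0394) and −0.30 for POPDC3 (adjusted p = 0.0467). The net calls of ZNF486 and ZNF225 were lost when some single replicates were left out.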

How the results depend on the processing

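The net comparison called 3091 genes (1732 higher, 1359 lower), with 184 and 1 beyond 1.5-fold. Leaving out 1 replicate gave 1717 to 3892 called genes (1069 to 1874 higher, 648 to 2018 lower), 114 to 174 and 0 to 2 beyond 1.5-fold, and 98 to 138 higher and 83 to 162 lower list members, against 129 and 130. Without replicate 1 of the reference the total was the highest and without replicate 2 of the reference the lowest. Fitted on the 6 libraries of the 2 conditions alone, 1302 genes were called (864 higher, 438 lower), 69 and 0 beyond 1.5-fold, 258 of the risen and 9 of the fallen genes stayed called, and 64 list members were lower. An adjusted p under 0.01 gave 1378 genes (856 and 522) and 70 lower list members, and a 2-fold minimum 509 genes (501 and 8) and 46 and 0 list members. DESeq2's size factors gave 1572 higher and 1649 lower genes, and its Wald test 1662 and 1935, with 111 and 0 beyond 1.5-fold. Without a filter 1126 genes were higher and 1372 lower, and with at least 10 counts in all libraries 2 were lower beyond 1.5-fold. The narrower of the other bands tried held 4308 genes, 8 of the risen and 1 of the fallen, and the wider one, of 2-fold, 164 and 81 of these. Followed from any called change at 20% O2 wo Doxy, 1553 risen and 2511 fallen genes were inside the band and 850 and 184 stayed called. A correction for GC content, added after the data were seen, gave 4904 called genes (2979 higher), 2 lower beyond 1.5-fold and 44 risen genes inside the band. The replicate numbers were not taken to pair the libraries (correlations of deviations −0.54 to −0.02 for 3 pairs of the same number and −0.76 to 0.80 for 6 others), and a fit with the replicate block gave 2278 called genes (1363 higher, 915 lower) with 0 lower beyond 1.5-fold. The cause of these shifts was not tested. None of 136 named genes changed direction under these alternatives (0 reversed), while 25 lost their call in the fit on 6 libraries, 12 with the block and 4 to 18 when a replicate was left out. At this depth and spread, 5548 genes could be placed neither inside the band nor off the reference.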
